A study of Mus musculus with 12 samples.

Results

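Skin that had received fibroblasts was set against normal skin to see which transcripts still differed from normal after treatment. Messenger RNA was sequenced from skin of C3H/HeJ mice, and the comparison uses 6 of the 12 libraries of the study: 3 of treated skin at 20 weeks and 3 of normal skin, with every gene of the deposited table as a candidate. Treated skin is fibrotic skin to which CD36highCD90+ fibroblasts, cells with much CD36 and with CD90 on their surface, had been transplanted. The 3 libraries of untreated fibrotic skin at 20 weeks are given beside the values, and the 6-week fibrotic libraries were not used. All groups share the strain and the tissue, and no genetic change is named for any of them. The labels give no time for normal skin, no ages, no donor or dose of the fibroblasts, no time of transplantation and no means by which fibrosis was made. They also leave unsaid whether each library is from an animal of its own. The p-values therefore measure the spread between libraries, which may be technical in part.

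A gene was kept where at least 3 of the 6 libraries reached 1 FPKM (fragments relative to a transcript's length and a library's mapped fragments), which left 13292 of 23359 genes. Differences are in mean log2(FPKM + 1), so those of weakly expressed genes are understated, and a gene was called at a limma p-value under 0.05 after Benjamini-Hochberg adjustment over all tested genes. In pieces of whole skin, fewer cells of a type and less RNA per cell cannot be told apart.

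Skin holds a layered epidermis, whose keratinocytes move upwards from a dividing basal layer and harden into a cornified sheet, and a dermis of fibroblasts in a collagen matrix, with hair follicles, sebaceous glands, vessels and fat. Wounded epidermis switches on keratins and small proline-rich proteins that resting epidermis hardly makes. In fibrosis, fibroblasts and myofibroblasts lay down collagen and cross-link it, while follicles, glands and dermal fat are often lost. CD36 takes up fatty acids into cells, and fibroblasts carry CD90, encoded by Thy1, on their surface.

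The libraries carried the markers of skin. The basal keratin gene Krt5 stood at 3268, 3501 and 2583 FPKM in treated replicates 1, 2 and 3 and at 2327, 2335 and 2279 in normal ones. Decorin (Dcn), a proteoglycan of dermal fibroblasts, stood at 165, 244 and 230 and 243, 405 and 272 FPKM. The late envelope gene Lor and the fibroblast receptor gene Pdgfra were also present in all 6 libraries. In each of the 6 libraries, between 12745 and 13364 genes of the table reached 1 FPKM, and the median tested gene stood at 10.3 to 10.9 FPKM.

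The 3 treated libraries were not alike. To place them, 1319 genes were taken that were called with at least a 2-fold change in untreated fibrotic against normal skin, a choice that used no treated library (9.92% of tested genes). For each gene, the treated value was set on a line from 0 at the normal mean to 1 at the fibrotic mean. The median position was 0.873 in treated replicate 1, 0.357 in replicate 2 and 0.222 in replicate 3. By these genes replicate 1 thus lay close to untreated fibrotic skin, and replicates 2 and 3 lay nearer to normal skin. For the 691 genes higher in fibrotic skin the medians were 0.821, 0.333 and 0.141, and for the 628 lower ones 0.917, 0.388 and 0.320. The mean correlation across genes with the normal libraries was 0.868, 0.936 and 0.894 in replicates 1, 2 and 3, and with the fibrotic ones 0.949, 0.932 and 0.865. The fibrotic libraries themselves correlated with the normal ones at 0.883, 0.901 and 0.895. Across all tested genes, replicate 3 was thus about as far from normal skin as the fibrotic libraries were. Replicate 2 was nearly as close to fibrotic as to normal skin. The median gene had an SD of 0.235 on the log2 scale among treated libraries, against 0.148 among normal and 0.146 among fibrotic ones. Values are therefore given by library, and list counts also without treated replicate 1 where that changed a call.

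**Figure D1:**
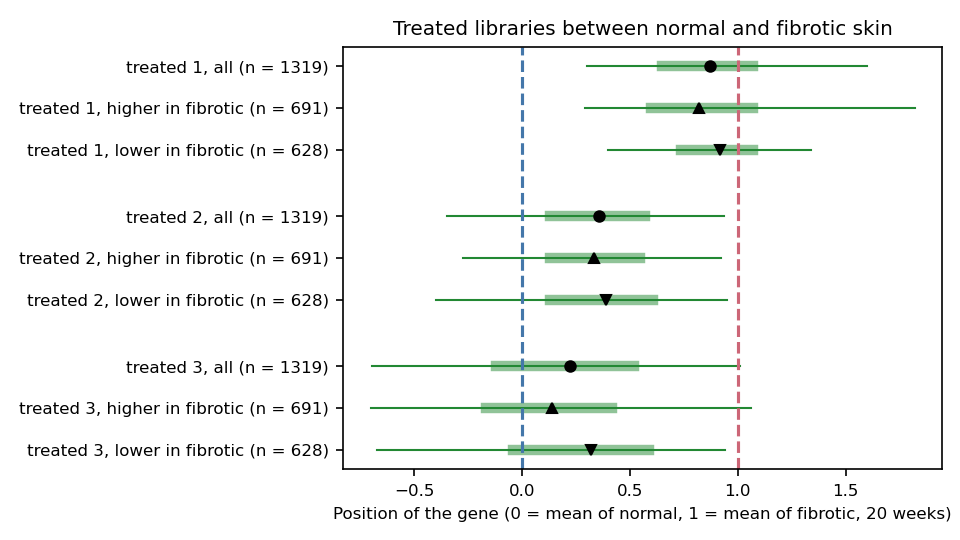
Position of genes in each treated library between the mean of normal skin (0, blue line) and of untreated fibrotic skin (1, red line), for all 1319 genes and for those higher or lower in fibrotic skin. Points are medians, bars run from the lower to the upper quartile and lines run from the 5th to the 95th percentile; the median over all genes was 0.873, 0.357 and 0.222 in treated replicates 1, 2 and 3.

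In the comparison itself, 142 of the 13292 genes were called (1.07%), of which 34 were higher in treated skin (0.256%) and 108 were lower (0.813%). Of these, 84 differed at least 2-fold (0.632%), 23 higher and 61 lower. They included genes of the upper epidermis and its junctions (Flg2, Cgn, Cldn23), of signalling (Shh, Btc, Gdnf) and of transport (Slc7a5, Mfsd2a, Abca5). Of the 37 lists of skin pathways and cell types, 31 had no called member. The lists held 2 to 37 tested genes each. With 1.07% of all tested genes called, a list without a called member is therefore no result about that list. At an unadjusted p under 0.05 there were 3801 genes (28.6%), and in 5004 genes (37.6%) the 3 treated and 3 normal values did not overlap. Leaving out treated replicate 1 raised the count to 426 (3.20%), 108 higher (0.813%) and 318 lower (2.39%), and 141 of the 142 genes were still called. Leaving out treated replicate 3 gave 37 genes, and leaving out treated replicate 2 or any 1 of the normal libraries gave 0. In all 142 called genes treated and normal values did not overlap, so leaving out a library could not change their direction. A fit that pooled the spread of all 12 libraries called 2854 genes. For scale, untreated fibrotic skin had 5118 genes called against the same normal libraries (38.5%), 2288 higher (17.2%) and 2830 lower (21.3%). The shares of this paragraph are the ones to set beside every count of list or family members below. A call needs a spread that is small beside the difference. Close treated values in called genes are therefore in part a result of their choice.

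The genes with the highest fold changes included a protease inhibitor, a detoxifying enzyme and an actin bundling protein. Slpi, which encodes a secreted inhibitor of leukocyte proteases, stood at 38, 20.2 and 15.4 FPKM in treated replicates 1, 2 and 3, at 2.5, 3.19 and 2.63 in normal skin and at 120.1, 147 and 105 in fibrotic skin. It rose by 2.66 ± 0.32 (log2, SE, limma adjusted p = 0.042), and the 3 treated values lay between those of normal and fibrotic skin without overlap. Fhl2, a LIM domain cofactor gene, rose from 2.14 ± 0.802 to 20.8 ± 10.6 FPKM (mean ± SD, n = 3 each), a log2 change of 2.71 ± 0.38 (SE, limma adjusted p = 0.0448). Its fibrotic mean was higher still, at 56.6 ± 5.67 FPKM (n = 3). Gpx2, a glutathione peroxidase gene of epithelia, stood at 32.2, 13.4 and 14.4 FPKM in treated and 2.56, 2.51 and 3.0 in normal skin, and rose by 2.4. In each of these genes the highest treated value was that of replicate 1.

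Fscn1, which encodes the actin bundling protein fascin, stood at 24.9, 19.2 and 23.2 FPKM in treated skin, 5.07, 4.02 and 3.36 in normal skin and 20.2, 16.1 and 12.1 in fibrotic skin. It rose by 2.19 ± 0.17 (log2, SE, limma adjusted p = 0.0295). Here the 3 treated libraries were close together, all at least as high as the middle of the fibrotic ones, and far above normal. Slc7a5, a transporter gene for large neutral amino acids, rose by 1.67, with 25.2, 19.5 and 13.2 FPKM against 5.54, 4.93 and 5.09. Mfsd2a, which encodes a transporter of lysophospholipids, rose by 1.51 and stood above every fibrotic library, with 15.5, 16.5 and 13.4 FPKM against 11.9, 12.2 and 13.4 in fibrotic skin. Bdh1, a mitochondrial ketone body dehydrogenase gene, rose by 1.77, and the cytosolic phospholipase gene Pla2g4b by 1.42. The neighbouring genes Nt5dc2 and Stab1, the latter a scavenger receptor gene of macrophages and endothelium, rose by 1.66 and 1.57. Their exons overlap on opposite strands of chromosome 14 (GRCm38; Nt5dc2 31131053 to 31139124, Stab1 31139013 to 31168641), and whether fragments were counted by strand is not given in the sources used here, so each may hold fragments of the other. Pla2g4b overlaps another annotated gene on its own strand and is uncertain for that reason, as are Bax and Cfb. Of the other called genes named, Acvr2a, Ahr, Bdh1, Ccnd1, Plod2, Ptgdr and Skint6 have exons that overlap those of a gene on the opposite strand.

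Among the genes with the lowest fold changes, Kctd12 had the smallest p of all. It encodes an auxiliary subunit of a GABA receptor, and stood at 25.4, 24.7 and 25.8 FPKM in treated skin and at 82.8, 101 and 81.1 in normal skin. It fell by 1.76 ± 0.12 (log2, SE, limma adjusted p = 0.0295). The 3 treated libraries were almost the same and lay within the range of the fibrotic ones, 16.3, 32.1 and 28.8 FPKM. An antisense gene is annotated over Kctd12, so its fragments could include others. Mrgprb3, a gene of the MAS-related receptor family, which includes receptors of mast cells and sensory neurons, stood at 2.16, 2.9 and 4.01 FPKM against 25.8, 21.1 and 30.2 in normal skin. It fell by 2.74 ± 0.21 (log2, SE, limma adjusted p = 0.0295), the steepest fall of the named genes. Abca5, a lipid transporter gene, fell by 2.26, with 2.59, 4.48 and 5.22 FPKM against 23.3, 21.4 and 23.7. The homeobox gene Sebox fell by 2.14, the kinesin gene Kif21a by 1.84, and Pvrl3, which encodes the cell adhesion protein nectin-3, by 1.98. For Btc, which encodes the EGF receptor ligand betacellulin, treated skin stood at 10.8, 12.1 and 9.09 FPKM, normal skin at 37.6, 53 and 45.7 and fibrotic skin at 10.2, 32.2 and 30.2. It fell by 1.99 ± 0.17 (log2, SE, limma adjusted p = 0.0295), and 2 of the 3 fibrotic libraries lay between treated and normal skin. In untreated fibrotic skin Btc was not called against normal (adjusted p = 0.0952), and the difference between treated and fibrotic skin was not called either (-0.97, 95% interval -2.0 to 0.06, limma adjusted p = 0.214).

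**Figure D2:**
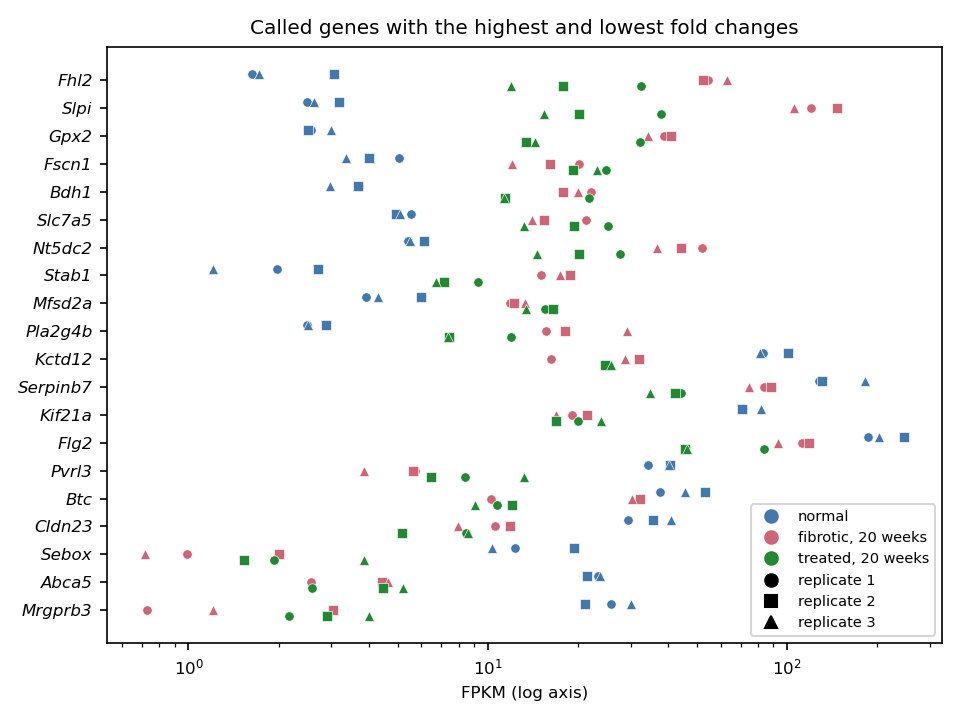
FPKM (log axis) of the 10 called genes with the highest and the 10 with the lowest fold changes in the 3 normal, 3 untreated fibrotic and 3 treated libraries, each library drawn as 1 point. Treated and normal points do not overlap in any of the 20 genes, which was a condition of their choice. Kctd12 stands at 24.7 to 25.8 FPKM in all 3 treated libraries.

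The promoters of 3 called genes are shown as examples. They were chosen after their values were seen and are not the genes with the closest treated libraries. Each is the stretch of 250 bases before the start given by RefSeq on GRCm38.p6, read in the direction of transcription, 5′ to 3′. Capitals mark matches, on either strand, of the motifs searched: the TATA box TATAAA, the CCAAT box, the GC box GGGCGG, the AP-1 form TGANTCA, the E-box CACGTG and the TEAD form GGAATG. Fscn1 lies on the plus strand (chr5:142960105-142960354), Kctd12 on the minus strand (chr14:102982638-102982887) and Scel, which encodes the cornified envelope precursor sciellin, on the plus strand (chr14:103513091-103513340).
Fscn1: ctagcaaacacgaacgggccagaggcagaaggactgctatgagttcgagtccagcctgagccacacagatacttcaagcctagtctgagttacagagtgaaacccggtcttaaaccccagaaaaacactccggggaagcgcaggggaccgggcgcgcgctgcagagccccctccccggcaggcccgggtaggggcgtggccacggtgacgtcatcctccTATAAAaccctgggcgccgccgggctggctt
Kctd12: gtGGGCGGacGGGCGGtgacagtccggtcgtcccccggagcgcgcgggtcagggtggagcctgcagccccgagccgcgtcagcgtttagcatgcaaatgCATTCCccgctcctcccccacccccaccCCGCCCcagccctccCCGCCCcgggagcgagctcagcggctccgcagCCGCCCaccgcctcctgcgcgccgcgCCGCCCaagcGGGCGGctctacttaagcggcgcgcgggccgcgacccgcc
Scel: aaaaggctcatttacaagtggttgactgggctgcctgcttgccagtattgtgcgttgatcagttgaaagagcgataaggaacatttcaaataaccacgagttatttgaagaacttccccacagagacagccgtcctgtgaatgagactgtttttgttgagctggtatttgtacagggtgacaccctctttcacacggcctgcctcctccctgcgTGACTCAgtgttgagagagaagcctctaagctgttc
The Fscn1 window held 1 TATAAA, ending at base -26 from the start. The Kctd12 window held 7 matches to GGGCGG, the GC box, and 1 to GGAATG, while the Scel window held 1 TGANTCA, the form of an AP-1 site. Of all tested genes, 10551 had a promoter in the RefSeq table, as did 23 of the 34 called higher and 85 of the 108 called lower. TATAAA was found in 7.35% of all promoters, 13% of those called higher and 4.71% of those called lower. GGGCGG was found in 58.2%, 52.2% and 58.8%, TGANTCA in 4.93%, 8.7% and 5.88%, and GGAATG in 10.7%, 8.7% and 16.5%. CCAAT was found in 36.3%, 39.1% and 21.2%, and CACGTG in 8.49%, 13% and 10.6%. A match is given as letters in a window and not as a bound site.

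In the epidermis, genes of wounded keratinocytes were spread widely among the treated libraries. None of the 23 measured members was called in treated against normal skin (median log2 difference 2.99, beside -0.08 over all tested genes), whereas 21 rose in untreated fibrotic skin (median 5.45). In 12 of the 23, all treated values lay above all normal ones, beside 13.4% of all tested genes. The list score, the mean log2 value of the members minus its mean in normal skin, was 5.18, 2.95 and 1.12 in treated replicates 1, 2 and 3, against -0.48 to 0.33 in normal and 5.06 to 5.93 in fibrotic libraries. Krt16, a keratin of activated epidermis, stood at 3368, 511 and 47.6 FPKM in the treated libraries, 13.8, 22.1 and 23.3 in normal ones and 3675, 3199 and 1718 in fibrotic ones. Replicate 1 was thus at the fibrotic level, and replicates 2 and 3 lay between it and normal skin. The members with the smallest p were Gjb6, a connexin gene, at 58.7, 17.9 and 12.5 against 1.69, 3.6 and 1.83 FPKM (2.92, limma adjusted p = 0.0623), and Stfa3, a cysteine protease inhibitor gene, at 4762, 2128 and 176 against 11.5, 25.6 and 25.4 FPKM (5.88, limma adjusted p = 0.0642). Without treated replicate 1, Gjb6 and Krt6a were called higher and no member lower.

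Genes of the cornified envelope and late differentiation had 1 of 27 members called, Flg2, and the score was 1.75, 0.89 and -0.30 in treated replicates 1, 2 and 3 (normal -0.20 to 0.37, fibrotic 2.27 to 2.57). Flg2 encodes a filaggrin family protein of the upper epidermis and stood at 84, 45.7 and 46.2 FPKM in treated skin, 186, 246 and 203 in normal skin and 112, 119 and 93.3 in fibrotic skin. It fell by 1.88 ± 0.27 (log2, SE, limma adjusted p = 0.0448), and all treated libraries were below all fibrotic ones, which were themselves below normal. Fibrotic skin had 23 members of the list higher and 2 lower. The kallikrein and Spink list had 0 of 16 called (median 0.98), with scores of 1.95, 0.86 and 0.01 in treated and 2.49 to 2.79 in fibrotic libraries, where 13 rose and 1 fell. Its member with the smallest p was the protease gene Klk14, at 3.75, 9.03 and 5.72 FPKM in treated, 1.02, 1.31 and 1.02 in normal and 47.1, 80.1 and 60.8 in fibrotic skin (1.69, limma adjusted p = 0.0566). All 3 treated values of Klk14 lay above normal and far below fibrotic skin. Without treated replicate 1, Klk14 was called higher and the protease inhibitor gene Spink5 lower. Basal and spinous layer genes had 0 of 20 called (median -0.34), while in fibrotic skin 10 rose and 5 fell. Krt14, the keratin partner of Krt5, stood at 4667, 2962 and 2111 FPKM against 1213, 1309.6 and 872 (limma adjusted p = 0.0744). Krt2, a keratin of the upper spinous layer, stood at 9.31, 89.5 and 68.3 against 0.65, 0.723 and 0.64 FPKM (limma adjusted p = 0.0598) and was called without treated replicate 1, whereas Krt77, Krt80 and the desmosome genes Dsg1a, Dsc3 and Dsp were called lower without it.

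Several junction and envelope genes outside those lists were also called; the genes and families of this paragraph were chosen after their values were seen. Of 24 tight junction genes tested, 3 fell and none rose, beside 0.813% of all tested genes lower and 0.256% higher. The family was chosen with these calls known, so its called share is no test of the family. In 7 of the 24 all treated values were below normal, beside 24.3% of all tested genes. In fibrotic skin 14 fell and 3 rose, beside 21.3% lower and 17.2% higher. Cgn, which encodes cingulin, a plaque protein of tight junctions, stood at 15.2, 15.1 and 13.4 FPKM in treated skin, 38.7, 40.1 and 41.3 in normal skin and 20.5, 25.3 and 24.7 in fibrotic skin, and fell by 1.4 ± 0.1 (log2, SE, limma adjusted p = 0.0295). Its treated values lay below all the fibrotic ones. Ocln, the gene of occludin, stood at 7.47, 5.76 and 8.81 against 17.2, 17.7 and 16.8 FPKM and fell by 1.14, and the claudin gene Cldn23, at 8.48, 5.18 and 8.57 against 29.3, 35.6 and 40.8 FPKM, fell by 2.12. The tight junction scaffold gene Tjp1 stood at 23.1, 18 and 19.5 FPKM in treated and 21.5, 23.5 and 19.2 in normal skin, with overlap. Scel stood at 96.4, 87 and 69.3 FPKM, against 199, 207 and 239 in normal and 149.6, 136 and 128 in fibrotic skin, and fell by 1.35. Serpinb7, an epidermal serine protease inhibitor gene, stood at 44.2, 42.1 and 34.8 against 128, 130.3 and 183 FPKM and fell by 1.82 ± 0.18 (log2, SE, limma adjusted p = 0.0369). It was the only called member of 19 clade B serpins, of which 10 rose and 3 fell in fibrotic skin. Anxa8, an annexin gene, stood at 489, 533 and 448 against 1137, 1134 and 1287 FPKM and fell by 1.27, and the beta-defensin gene Defb6 stood at 956, 1000.4 and 996 against 2196, 2312 and 2950 FPKM and fell by 1.32. Of 8 Skint genes, which encode membrane proteins of thymic and skin epithelium, Skint5 and Skint6 fell by 1.15 and 1.39, and in 5 of the 8 all treated values were below normal, beside 24.3% of all tested genes.

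**Figure D3:**
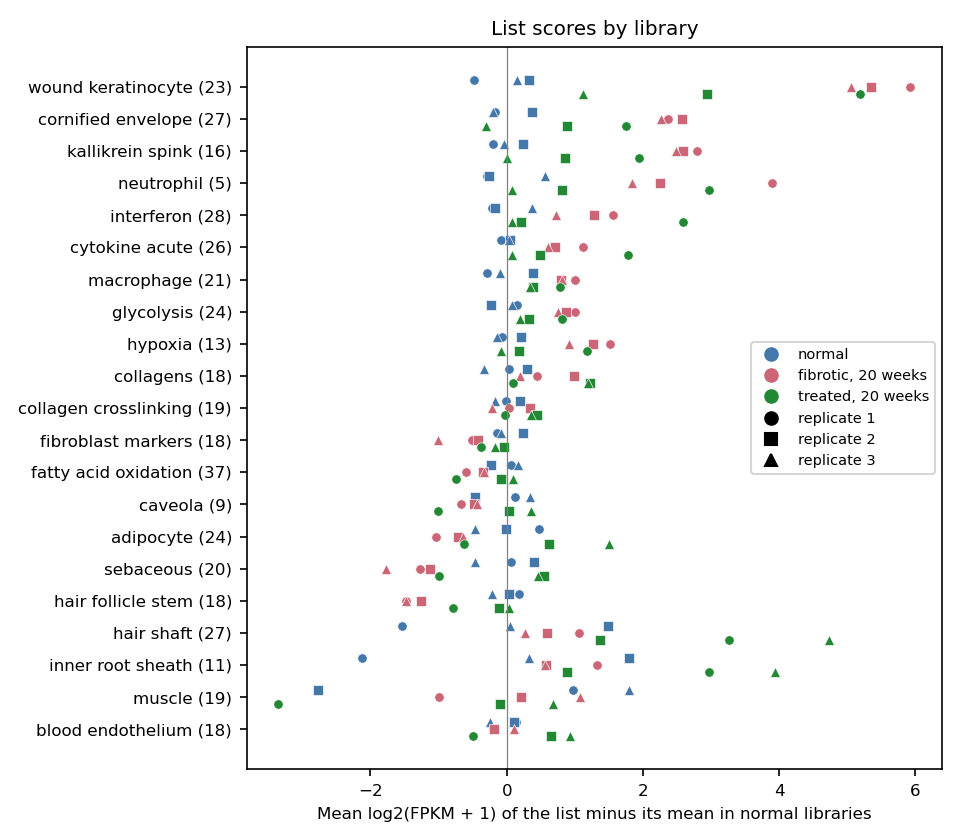
List scores (mean log2(FPKM + 1) of the tested members minus its mean over normal libraries, number of members in brackets) in each normal, untreated fibrotic and treated library. Treated replicate 1 (circle) stands with fibrotic skin for wound keratinocyte genes (5.18). For collagens it stands at 0.09, within the normal range (-0.33 to 0.30) and just below the fibrotic one (0.20 to 0.99). Treated replicates 2 and 3 stand at 1.22 and 1.19 for collagens.

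In the dermis, collagen genes were not called, and treated replicate 1, highest for the keratinocyte genes, was the lowest treated library. The collagen score was 0.09, 1.22 and 1.19 in treated replicates 1, 2 and 3, against -0.33 to 0.30 in normal and 0.20 to 0.99 in fibrotic libraries. None of 18 collagen genes was called (median 0.78), and 5 rose in fibrotic skin (median 0.49). Col1a1, of type I collagen, the main fibre of the dermis, stood at 51.2, 149 and 112 FPKM in treated skin, 24.5, 36.8 and 17.2 in normal skin and 86.1, 151 and 62.8 in fibrotic skin, a log2 difference of 1.89 ± 0.45 (SE, limma adjusted p = 0.0807). All treated values lay above all normal ones and across the range of fibrotic skin, and without treated replicate 1 Col1a1 was called (limma adjusted p = 0.0402). Col3a1, of type III collagen, stood at 96.8, 195 and 165 against 77.1, 173 and 78.6 FPKM and overlapped (limma adjusted p = 0.441). Col18a1, of the basement membrane zone, stood at 20.3, 33.3 and 47.7 against 16.3, 15.3 and 8.95 FPKM (limma adjusted p = 0.104).

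Of 19 genes of collagen folding, processing and cross-linking, Plod2 was called, and 6 were called higher without treated replicate 1, beside 0.813% of all tested genes. Plod2, which encodes a lysyl hydroxylase that sets the type of collagen cross-link, stood at 2.35, 2.97 and 2.88 FPKM in treated skin, 0.899, 0.895 and 0.911 in normal skin and 2.49, 2.88 and 3.33 in fibrotic skin. It rose by 0.97 ± 0.13 (log2, SE, limma adjusted p = 0.0448), and treated and fibrotic values overlapped. The other members called without replicate 1 were Lox (log2 difference 1.15), which cross-links collagen and elastin, the collagen chaperone genes Serpinh1 (0.96) and Fkbp10 (1.21), and the procollagen processing genes Pcolce (1.03) and Adamts2 (1.08). Matricellular and proteoglycan genes had 0 of 27 called (median 0.43), and Sparc was called without replicate 1. Thbs1, the gene of a TGF-beta activating thrombospondin, stood at 38.5, 43.2 and 49.3 against 19.2, 27.6 and 20.4 FPKM (limma adjusted p = 0.0601). Matrix degradation genes had 0 of 22 called (median 0.35), where fibrotic skin had 13 higher and 4 lower, and the aggrecanase gene Adamts4 was called higher without treated replicate 1. Mmp2, a gelatinase gene of that list, stood at 40, 65 and 55.5 FPKM in treated and 43, 59.6 and 35.3 in normal skin. The fibronectin gene Fn1 stood at 27.7, 26.6 and 36.5 and 19.7, 40.3 and 25.2 FPKM. The groups overlapped in both genes.

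Fibroblast markers had 0 of 18 called (median -0.29), with scores of -0.38, -0.04 and -0.17 in treated replicates 1, 2 and 3, against -1.0 to -0.42 in fibrotic libraries, where 10 fell and 2 rose. Thy1, the gene of CD90 and so a marker of the transplanted cells, stood at 80.5, 103 and 63.1 FPKM in treated skin, 41.3, 67.7 and 35.9 in normal skin and 57.5, 68.4 and 46 in fibrotic skin, a log2 difference of 0.78, 0.07 to 1.48 from normal (95% interval, limma adjusted p = 0.149). Cd36, the other marker, stood at 22.4, 85.9 and 131 FPKM in treated and 73.7, 59.7 and 57.8 in normal skin, a log2 difference of 0.0, -1.52 to 1.53 (95% interval, limma adjusted p = 0.997). Treated replicate 1 was below all normal libraries for Cd36, and replicates 2 and 3 were above them. The adipocyte score, at -0.63, 0.61 and 1.5, and the blood endothelium score below had the same order over treated replicates 1, 2 and 3. Which cells the Cd36 transcript came from was not tested. Cd34, a surface marker of dermal and follicle cells, stood at 30.8, 50.3 and 56.7 against 81.3, 97.3 and 89.7 FPKM without overlap (limma adjusted p = 0.0807), and at 22.4, 22.3 and 17.2 in fibrotic skin. Myofibroblast and TGF-beta genes had 0 of 20 called (median 0.26); Tgfb1 stood at 13.4, 10.9 and 12.6 against 7.76, 7.47 and 6.77 FPKM (limma adjusted p = 0.0597) and its target Tgfbi at 80.5, 133 and 90.2 against 217, 190.1 and 259 (limma adjusted p = 0.0623). Without treated replicate 1, the contractile genes Acta2 (2.14), Tagln (1.84) and Cnn1 (2.07) were called higher. These 3 genes are also made by smooth muscle of vessels and hair, and the blood endothelium score was -0.49, 0.65 and 0.93 in treated replicates 1, 2 and 3 (normal -0.24 to 0.13), whose part in the result was not tested.

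The lists of fat and energy metabolism, like most lists, had no called member. Called genes outside them included Bdh1, Mfsd2a and Abca5. Fatty acid oxidation genes had 0 of 37 called (median -0.26). Their scores were -0.74, -0.08 and 0.10 in treated replicates 1, 2 and 3 and -0.60 to -0.33 in fibrotic libraries. In fibrotic skin 12 fell and 3 rose, beside 21.3% lower and 17.2% higher of all tested genes. Without treated replicate 1, 1 member, the lipid sensor gene Ppara, was called lower (log2 difference -0.74). Cpt1a, which lets fatty acids into mitochondria, stood at 25.9, 30.8 and 27.9 FPKM in treated skin, 25.4, 38.4 and 32.8 in normal skin and 40.6, 46.1 and 50.6 in fibrotic skin, a log2 difference of -0.17, -0.59 to 0.25 from normal (95% interval, limma adjusted p = 0.544). The treated values lay below all the fibrotic ones, but the difference between them was not called (-0.68, 95% interval -0.99 to -0.37, limma adjusted p = 0.126). Acsl5, an acyl-CoA synthetase gene, stood at 92.1, 121 and 97.1 against 149, 208 and 163 FPKM (limma adjusted p = 0.0807), without overlap. Glycolysis genes had 0 of 24 called (median 0.46), with scores of 0.81, 0.33 and 0.19 in treated and 0.76 to 1.0 in fibrotic libraries, where 17 rose and 2 fell. Pfkfb3, which encodes an activator of glycolytic flux, stood at 19.9, 19.6 and 27.1 FPKM in treated, 11.6, 12.9 and 9.56 in normal and 22.8, 19.1 and 22.6 in fibrotic skin (0.9 ± 0.17, SE, limma adjusted p = 0.0623). All 3 treated values were above normal and near those of fibrotic skin. Citric acid cycle and respiratory chain genes had 0 of 32 called (median 0.01).

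Adipocyte markers had 0 of 24 called (median 0.41), with scores of -0.63, 0.61 and 1.5 in treated replicates 1, 2 and 3, -0.47 to 0.48 in normal and -1.04 to -0.65 in fibrotic libraries, where 9 fell and 2 rose. Adipoq, the gene of the fat hormone adiponectin, stood at 50.2, 119.6 and 261 FPKM in treated, 165, 114 and 63.2 in normal and 27.2, 41 and 57.5 in fibrotic skin, a log2 difference of 0.13, -1.45 to 1.71 from normal (95% interval, limma adjusted p = 0.907). Its value in treated replicate 1 lay in the fibrotic range and that in replicate 3 above every normal library. Sebaceous gland genes had 0 of 20 called (median 0.01), with scores of -1.0, 0.55 and 0.46 in treated and -1.77 to -1.12 in fibrotic libraries, where 12 fell and 1 rose. The desaturase gene Scd3, made in sebaceous glands and chosen after its values were seen, shows the same split, with 1.95, 72.5 and 97.7 FPKM in treated, 75.8, 91 and 38 in normal and 1.12, 1.68 and 0.525 in fibrotic skin. Caveola genes had 0 of 9 called (median -0.25). Cav1, which encodes the coat protein of caveolae, stood at 73.8, 174 and 208 FPKM in treated, 173, 170.1 and 154 in normal and 86.3, 93.3 and 88.1 in fibrotic skin (limma adjusted p = 0.695). Replicate 1 was below every fibrotic library and the other two were above every normal one. Cholesterol synthesis genes had 0 of 22 called (median 0.26), where 12 rose in fibrotic skin.

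Hair shaft genes gave the largest median of the lists but no called gene. None of 27 was called, with a median of 3.69, beside 0.62 in fibrotic skin, and in 10 of the 27 all treated values lay above all normal ones (beside 13.4% of all tested genes). Their scores were 3.26, 1.38 and 4.72 in treated replicates 1, 2 and 3, against -1.53, 1.48 and 0.05 in normal replicates 1, 2 and 3 and 0.27 to 1.06 in fibrotic libraries. Krt35, a keratin of the hair cortex, stood at 118, 20 and 166 FPKM in treated, 0.319, 8.91 and 1.73 in normal and 9.49, 12.7 and 6.03 in fibrotic skin (4.5 ± 1.03, SE, limma adjusted p = 0.0743). Krt83, another hair keratin, stood at 48.8, 10.6 and 214 FPKM in treated, 0.0302, 6.57 and 1.05 in normal and 6.4, 4.09 and 2.79 in fibrotic skin (4.31, limma adjusted p = 0.0998). In both genes replicates 1 and 3 of treated skin were far above all other libraries, while replicate 2 was above the highest normal one by less. The same held for Krt31, Krt33b, Krt85, Krt73, Krtap13-1, Dsg4, Csdc2 and the calcium binding protein gene S100a3 of the hair cuticle, at 583, 70.7 and 891 against 5.03, 61.5 and 12.6 FPKM. These 10 genes were those most apart from both normal and fibrotic skin at an unadjusted p under 0.05, among 734 such genes, and none was called in either comparison. Hair keratin and keratin-associated genes are families of close copies, so single members are uncertain. Inner root sheath genes had 0 of 11 called (median 2.60), with scores of 2.97, 0.88 and 3.93 in treated and -2.13 to 1.80 in normal libraries. Follicles pass through growth and rest, and the labels give no hair cycle stage.

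Shh, the gene of the ligand Sonic hedgehog that is made in the matrix of growing follicles, was the only called member of the 18 follicle stem cell and growth genes. It stood at 3.05, 1.7 and 2.66 FPKM in treated skin, 0.203, 0.241 and 0.188 in normal skin and 0.327, 0.844 and 0.606 in fibrotic skin. It rose by 1.5 ± 0.19 (log2, SE, limma adjusted p = 0.042), and all treated libraries were above all fibrotic ones. The annotation places antisense genes over Shh, so its fragments could include theirs. Of other genes of the pathway, chosen after their values were seen, the receptor gene Ptch1 stood at 5.86, 8.99 and 8.21 against 7.54, 7.84 and 4.1 FPKM and the effector gene Gli1 at 4.51, 12.1 and 8.28 against 7.24, 6.1 and 1.93. In both, treated and normal values overlapped. Mycn, a growth-promoting transcription factor gene likewise chosen after its values were seen, stood at 5.54, 5.93 and 5.15 FPKM in treated, 2.02, 1.69 and 1.14 in normal and 1.31, 1.67 and 1.84 in fibrotic skin. It rose by 1.34 ± 0.16 (log2, SE, limma adjusted p = 0.042), with little spread among the treated libraries, and fibrotic skin was at the normal level. The Wnt effector gene Lef1, also chosen that way, stood at 9.59, 4.86 and 11.2 against 2.47, 1.95 and 1.7 FPKM (limma adjusted p = 0.0601). The median of the follicle stem cell list was -0.32, and its scores were -0.80, -0.11 and 0.03 in treated and -1.48 to -1.25 in fibrotic libraries, where 14 of 18 fell. Krt15, a keratin of bulge and basal cells, stood at 243, 943 and 993 FPKM in treated, 2079, 1564 and 1876 in normal and 115, 351 and 129 in fibrotic skin (limma adjusted p = 0.14).

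**Figure D4:**
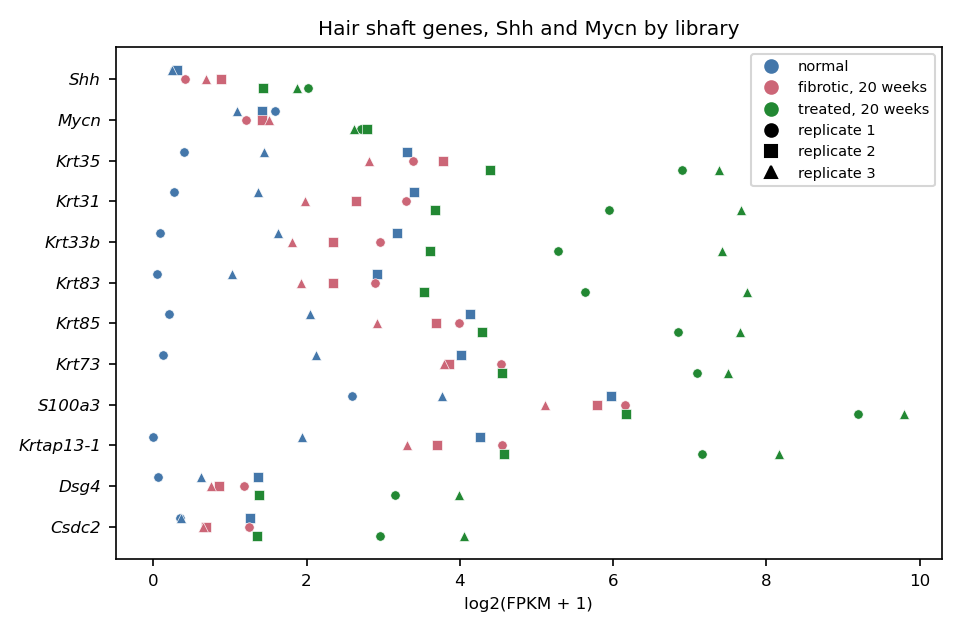
log2(FPKM + 1) of Shh, Mycn and 10 hair-related genes in each normal, untreated fibrotic and treated library. Shh and Mycn were called in treated against normal skin and their 3 treated points lie close together, which a call favours. The hair keratin genes, none of them called, are high in treated replicates 1 and 3 and less far above normal skin in replicate 2.

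Among immune cells, macrophage markers had 1 of 21 called, beside 1.07% of all tested genes, with a median of 0.49. In fibrotic skin 15 rose and 1 fell, beside 17.2% higher and 21.3% lower of all tested genes. The called gene was Trem2, a lipid-sensing receptor gene of tissue macrophages, at 3.04, 3.91 and 2.48 FPKM in treated, 0.889, 0.718 and 0.525 in normal and 8.01, 4.99 and 7.97 in fibrotic skin. It rose by 1.27 ± 0.18 (log2, SE, limma adjusted p = 0.0448), and its treated values lay between the other groups without overlap. The macrophage score was 0.78, 0.39 and 0.34 in treated replicates 1, 2 and 3, against -0.29 to 0.38 in normal and 0.80 to 1.01 in fibrotic libraries. Interferon-stimulated genes had 0 of 28 called (median 0.93), and their score was 2.59 in treated replicate 1, above every fibrotic library (0.72 to 1.56), but 0.22 and 0.07 in the other two. Isg15, a ubiquitin-like interferon-induced gene chosen after its values were seen, stood at 304, 21.2 and 20.7 FPKM in treated and 15.3, 11.9 and 18.8 in normal skin. Cytokine and acute-phase genes had 0 of 26 called (median 0.63), with scores of 1.79, 0.49 and 0.08 in treated and 0.60 to 1.13 in fibrotic libraries. Unlike the list, its member Hp, which encodes haptoglobin, was alike in all treated libraries, at 112, 126 and 142 FPKM against 36.6, 47.1 and 14.2 (limma adjusted p = 0.0652). Neutrophil genes had 0 of 5 called, with scores of 2.98, 0.81 and 0.08 in treated libraries. T and NK cell genes (14), B and plasma cell genes (2), dendritic and antigen presentation genes (13) and mast cell genes (9) had 0 called. Without treated replicate 1, the chemokine genes Cxcl9 of the cytokine list (1.72) and Ccl5 of the T and NK list (1.48) were called higher and the B cell adaptor gene Blnk (-0.70) lower. The mast cell receptor gene Mrgprb2 stood at 0.501, 4.18 and 4.31 FPKM against 12.5, 11.3 and 20.9 (limma adjusted p = 0.085) and the mast cell tryptase gene Tpsab1 at 3.55, 5.8 and 3.95 against 0.275, 0.41 and 2.09, so 2 markers of the same cell lay on opposite sides of normal. Cfb, the gene of complement factor B, chosen after its values were seen, stood at 25.1, 21.7 and 22.7 FPKM against 9.46, 11.7 and 10.7 in normal and 15.7, 12.8 and 11.4 in fibrotic skin, and rose by 1.06 ± 0.12 (log2, SE, limma adjusted p = 0.0369).

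Cell division and death genes had 3 called members, each with small spread, which a call favours. Ccnd1, the cyclin gene of early cell cycle entry, rose by 0.78, from 24, 22.3 and 21.1 FPKM in normal to 36, 43.1 and 39 in treated skin, and was the only called member of 27 cell cycle genes (median 0.52). Cdkn1b, which encodes an inhibitor of cyclin-dependent kinases, fell by 0.74, at 34.6, 34.2 and 36.1 against 59.8, 57.3 and 60.4 FPKM. Bax, a gene of mitochondrial apoptosis, rose by 1.23 ± 0.16 (log2, SE, limma adjusted p = 0.0423), at 35.4, 42.6 and 40.2 FPKM against 18.7, 17.3 and 13.1 in normal and 23.3, 32.8 and 30.3 in fibrotic skin. Its treated values lay above all the fibrotic ones. Bax and Cdkn1b were the 2 called members of 22 p53 and senescence genes, beside 1.07% of all tested genes called. In fibrotic skin 9 of the 22 rose and 2 fell, beside 17.2% higher and 21.3% lower of all tested genes. Without treated replicate 1, Cdkn2a, an inhibitor gene of the cell cycle, was also called higher (2.48). Oxidative stress response (19 genes) and hypoxia (13) lists had 0 called, although 10 hypoxia genes rose in fibrotic skin.

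Secreted factors and receptors that guide nerves and epithelia were also among the called genes; they were chosen after their values were seen. Gdnf, which encodes a neurotrophic factor, stood at 1.46, 1.81 and 1.48 FPKM, against 5.28, 5.07 and 4.97 in normal and 1.24, 1.33 and 1.07 in fibrotic skin, and fell by 1.24 ± 0.11 (log2, SE, limma adjusted p = 0.0347). The class 3 semaphorin genes Sema3c and Sema3d, which encode axon guidance factors, fell by 1.46 and 1.32. They were 2 of 6 members tested of a family chosen with these calls known, beside 0.813% of all tested genes called lower. Sema3c stood at 13.9, 20.3 and 17.4 FPKM in treated and 45, 44.6 and 57 in normal skin. Bmp2, a growth factor gene that restrains follicle growth, stood at 5.6, 6.45 and 7.07 against 12.5, 12.7 and 12.5 FPKM and fell by 0.88. The receptor genes Acvr2a (activin), Lifr (leukaemia inhibitory factor), Tnfrsf21 and Ptgdr (prostaglandin D) fell by 0.73, 0.7, 0.94 and 1.25. Ahr, the gene of the aryl hydrocarbon receptor, which senses dioxins and skin metabolites, stood at 23.4, 24.5 and 18.1 against 43.7, 42.6 and 48.5 FPKM and fell by 1.01. Nt5e, the gene of the adenosine-forming surface enzyme CD73, stood at 12, 16.6 and 17.5 against 37.8, 38.8 and 37.1 FPKM and fell by 1.27. For Ahr, Nt5e, Sema3c and Ptgdr, treated and fibrotic values overlapped.

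Lists of other tissue in the skin pieces had 0 called members: skeletal muscle (19 genes), blood endothelium (18), nerve and Schwann cells (13), melanocytes (7) and red blood cells (4). The muscle score was -3.35, -0.10 and 0.67 in treated replicates 1, 2 and 3 and -2.77 to 1.80 in normal ones, so both groups held libraries with more and with less muscle transcript, whose part in the results was not tested.

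Against untreated fibrotic skin, the 142 called genes fell into 3 kinds, given as a description since the same treated values chose them. In 71 genes (50%, beside 67.5% of all tested genes) treated and fibrotic values overlapped, and these included Kctd12, Fscn1, Abca5, Mrgprb3, Cldn23, Plod2 and Ccnd1. In 23 (16.2%, beside 3.23%) the treated values lay between normal and fibrotic skin with no overlap of either, among them Slpi, Fhl2, Gpx2, Trem2, Stab1, Gdnf, Bmp2 and Pvrl3. Both this kind and the next need treated and normal values without overlap, which held for all 142 called genes but for 37.6% of tested genes. Their shares over all tested genes are lower in part for that reason. Of the 5004 tested genes without overlap, 429 lay between and 1404 beyond. In 48 (33.8%, beside 10.6%) all treated values lay beyond all fibrotic ones on the side away from normal, 11 of them higher and 37 lower. Ptgr1, a reductase gene for prostaglandins and leukotrienes chosen after its values were seen, is of this last kind, at 36.6, 35.8 and 34.6 FPKM in treated, 74.6, 77.4 and 73.2 in normal and 58.5, 73.4 and 72.2 in fibrotic skin. It fell by 1.05 ± 0.09 (log2, SE, limma adjusted p = 0.0302), and the treated libraries were close together. The peptide transporter gene Slc15a1, chosen the same way, stood at 8.23, 8.35 and 8.08, 15.6, 17.6 and 18.1 and 16.3, 13.3 and 18.2 FPKM in the same order and fell by 0.97. Shh, Mycn, Bax, Cfb, Cgn, Flg2, Scel, Serpinb7, Skint5 and Skint6 were of this kind as well, and Mfsd2a only just, by 13.41 against 13.35 FPKM.

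Whether the distance from normal differed between treated and fibrotic skin is the direct comparison of those groups, in which 2 of 13292 genes were called (0.0150%), neither of them among the 142. At an unadjusted p under 0.05 there were 3394 genes (25.5%), and 3998 were called without treated replicate 1. For Slpi and Fhl2, treated skin was lower than fibrotic skin by a log2 difference of -2.38, 95% interval -3.18 to -1.58, limma adjusted p = 0.126 and -1.51, 95% interval -2.33 to -0.68, limma adjusted p = 0.126. For Kctd12 and Fscn1 the differences were 0.03, 95% interval -0.58 to 0.64, limma adjusted p = 0.949 and 0.47, 95% interval -0.02 to 0.96, limma adjusted p = 0.207. For Shh and Mycn they were 1.12, 95% interval 0.59 to 1.64, limma adjusted p = 0.126 and 1.33, 95% interval 1.01 to 1.65, limma adjusted p = 0.0888. The intervals of single genes exclude 0 for Slpi, Fhl2, Shh and Mycn, but no adjusted p passed.

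**Figure D5:**
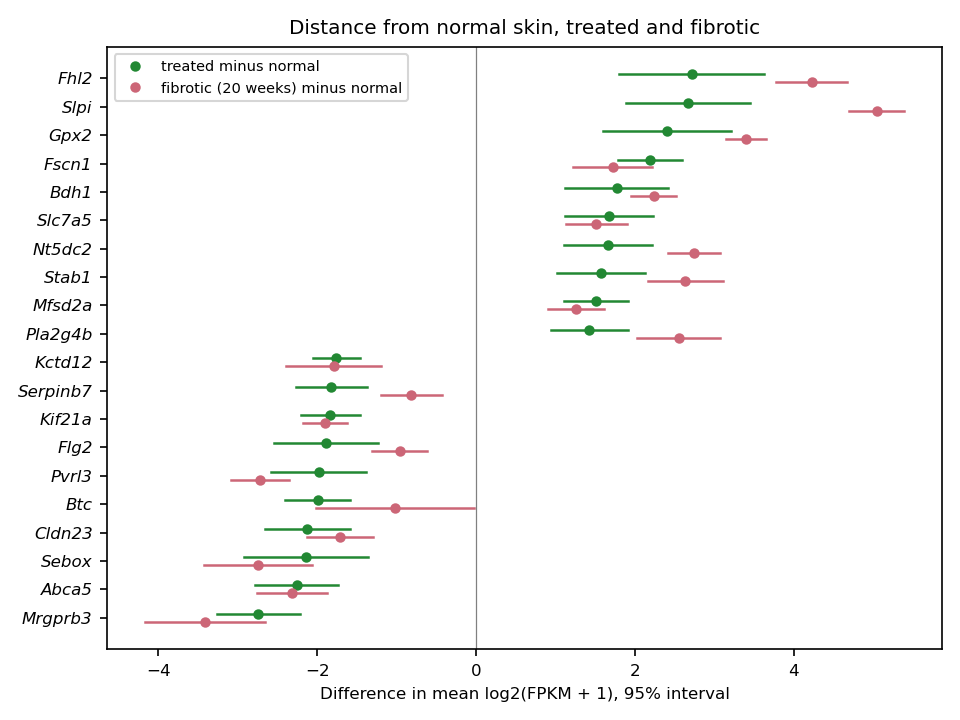
Difference from normal skin in mean log2(FPKM + 1), with 95% intervals, for treated and for untreated fibrotic skin, in the 10 called genes highest and the 10 lowest in treated relative to normal skin. Fhl2 and Slpi stand nearer to normal in treated than in fibrotic skin (2.71 and 2.66 against 4.22 and 5.04), and Kctd12 and Kif21a stand at the same distance in both within their intervals.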

How the data were processed

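Deposited FPKM values of skin libraries were analysed; in treated against normal skin, 3 libraries of each were compared. The authors deposited 1 table of FPKM values, fragments scaled to transcript length and mapped fragments. Per the labels' protocols, frozen skin was pulverised, RNA had an integrity number above 8.0, and libraries were made from polyadenylated RNA with a stranded kit and pooled before paired-end sequencing. The labels do not tie libraries to pools, so no batch could be tested. The submitters' processing notes name the mm10 assembly and the tools Cufflinks 2.2.1, TopHat2 2.0.13, FastQC 0.11.2, R 3.1.1, Bowtie2 2.2.3, cutadapt 1.7.1 and SAMtools 1.0. Not given in the sources used here are the role of each, the annotation and the strand setting. Reads were not used, and low values did not fall on whole multiples of 1 read (11.7% to 19.5% within 10% of a common ratio to normal replicate 1), so depth is unknown.

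Genes that reached 1 FPKM in 3 or more of the 6 libraries were tested in limma 3.58.1 (R 4.3.3) on log2(FPKM + 1), with an intensity trend, in a fit of the compared libraries (4 residual degrees of freedom). Tests were 2-sided with Benjamini-Hochberg adjustment, with calls made under an adjusted p of 0.05. With 3 libraries a side, the smallest p of an exact permutation test is 0.10, so none is given. The script was tested on simulated data. The 11 tested genes listed at exactly 0 in a library but at 10 FPKM or more elsewhere (Krt1, Krt10, Hrnr, Krtap22-2 and short RNAs) were fitted but left out of list counts and get no fold.

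The genes named are 10 set genes (Adipoq, Cav1, Cd36, Col1a1, Col3a1, Cpt1a, Fn1, Mmp2, Pfkfb3 and Thy1), up to 4 called 2-fold members of each of 37 lists or else those with the smallest p, the 10 highest and 10 lowest called genes (higher group's mean at least 5 FPKM), and up to 10 genes apart from both other groups. The called list members and the 10 highest and 10 lowest called genes also needed treated and normal values without overlap. Any gene outside these rules was chosen after its values were seen. The comparison, lists and rules were chosen with earlier results of these data known. Positions of 220 of 222 genes came from GENCODE M21 (GRCm38, the same assembly as mm10) and promoters from RefSeq. Alternatives tried were another pseudocount, other filters, median of ratios scaling, rescaling without 3 tissue lists, a fit of 12 libraries, a constant prior, a replicate block and each library left out.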

Additional observations from a re-analysis of the deposited data

Results flagged for a closer look

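The distance from normal skin differed between treated and untreated fibrotic skin for 2 genes in limma, tested as treated against fibrotic skin. Cyp2s1, a cytochrome P450 gene of epithelia, stood at 12.7, 10.5 and 13.1 FPKM in treated, 9.95, 10.4 and 8.49 in normal and 38.7, 40.2 and 38.0 in fibrotic skin. It was lower in treated than in fibrotic skin by a log2 difference of -1.62 (limma adjusted p = 0.043), higher in fibrotic than in normal skin by 1.92, and not called between treated and normal skin (0.30, limma adjusted p = 0.198). All 3 treated libraries, replicate 1 included, lay near the normal ones. The call of Cyp2s1 between treated and fibrotic skin was lost with median of ratios scaling, with a constant prior and without a filter on low values. It was also lost with a replicate block and after rescaling without 3 tissue lists. Leaving out treated replicate 2 or any 1 of the fibrotic libraries lost it as well.

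Krt1, the keratin partner of Krt10 in the spinous layer, was called higher in treated than in fibrotic skin (limma adjusted p = 0.0356). It is listed at 0 in all 3 fibrotic libraries and stood at 7509, 4547 and 956 FPKM in treated and 867, 1401 and 1374 in normal skin. Krt10 is listed at 0 in 2 fibrotic libraries and at 16040 FPKM in the other one. A value of exactly 0 for so abundant a transcript can be a failed estimate, so no fold is given.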

How the results depend on the processing

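Treated against normal skin, 142 genes were called; the counts were 14 without a filter on low values, 93 with median of ratios scaling, 217 after rescaling without cornified, muscle and hair shaft genes, and 2854 in a fit of all 12 libraries. A pseudocount of 0.1, a filter at a mean of 5 FPKM and a constant prior gave 141, 185 and 131. Leaving out 1 library gave 0 to 426 genes. The sign of the 142 genes could not change there, as their treated and normal values did not overlap. The smallest adjusted p was 0.0958 to 0.201 where the count was 0, with 2217 to 3171 genes at an unadjusted p under 0.05. With a replicate block, 0 genes were called (2216 at an unadjusted p). Deviations of libraries with the same number correlated at -0.403, -0.358 and 0.0934. Between treated and fibrotic skin they correlated at 0.384, 0.0116 and 0.223, and between fibrotic and normal skin at -0.227, -0.0391 and 0.247. Deviations within a group can have other sources, so these values cannot decide whether equal numbers pair the samples.

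Between treated and fibrotic skin 2 genes were called, Krt1 and Cyp2s1. The count was 2071 in the fit of all 12 libraries, and 0 to 3998 with 1 library left out. It was 1 with median of ratios scaling, after list removal and with a constant prior, and that gene was Krt1. It was also 1 without a filter and with a replicate block, where neither Krt1 nor Cyp2s1 was called. Fibrotic against normal skin gave 3569 to 7138 genes. Rescaling after list removal moved its median log2 difference from -0.05 to -0.328 and its split to 1213 higher and 5925 lower, from 2288 and 2830.

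For the 105 named genes, 1187 of 1439 alternative values kept direction and side of the threshold, 64 newly passed, 173 no longer passed and 15 reversed; all 15 belong to uncalled genes. Cd36 was -0.0023 with a pseudocount of 0.1 and -0.027 after rescaling. With 1 library left out, ranges were -0.513 to 0.736 for Cd36, -0.539 to 0.202 for Cav1, -0.087 to 0.412 for Fn1, -0.448 to 0.730 for Adipoq, -1.76 to 0.093 for Myh4, -1.85 to 0.093 for Alas2 and -2.96 to 0.857 for Hba-a2. List counts without treated replicate 1 were added after seeing that this library lay near fibrotic skin. The causes were not tested.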
